A study of Mus musculus with 8 samples.

Results

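Cation chloride cotransporters move chloride across the cell membrane together with sodium or potassium, and the WNK kinases with their partner kinase SPAK set how active these transporters are. Messenger RNA of 9 such genes, chosen by symbol from 14765 in a table of read counts per gene, was described in PrL tissue (taken as the prelimbic part of mouse medial prefrontal cortex) from mice after SNI, against sham mice. The 9 were the cotransporters Slc12a2, Slc12a4, Slc12a5, Slc12a7 and Slc12a9, the kinases Wnk1, Wnk2 and Wnk3, and Stk39, which encodes SPAK. All 9 had a row in the table, and all 9 passed the filter on low counts. The rule took genes by symbol and set no cutoff on a measured value. The list itself was chosen with earlier results of these data known.

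There were 4 SNI and 4 Sham libraries of poly(A) RNA. SNI is the usual short form of spared nerve injury, an operation on rodents that cuts some branches of the sciatic nerve, leaves others whole and is followed by lasting pain hypersensitivity. Sham surgery leaves the nerve intact. All mice carried the strain label C57, with no transgene or drug named. The time after surgery, the age and sex of the animals, and whether a library came from 1 mouse or from pooled mice are not given in the sources used here, so each p-value rests on differences among libraries that could be partly technical. Library totals were 14735602 to 19602487 counts. A member's count in a library ran from 38 for Slc12a7 to 12113 for Slc12a5, so counting error weighs most on Slc12a7. All 8 excitatory neuron markers searched, among them the cortical gene Tbr1, were measured in every library. All 10 striatal markers searched were measured too, and all 10 had higher estimates in SNI, with 0 past the threshold by edgeR, 5 at an unadjusted p under 0.05 and 1 called by DESeq2. Their summed level was 377 to 894 CPM in SNI libraries and 255 to 499 CPM in Sham libraries.

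In a mature neuron, GABA-A receptors open a chloride channel, and the direction of the chloride current depends on how much chloride the cell holds. KCC2, the product of Slc12a5, carries chloride out of neurons along with potassium. NKCC1, the product of Slc12a2, brings chloride in with sodium and potassium, and is made in glia, vessel cells and choroid plexus as well as in neurons. WNK kinases respond to low chloride and to osmotic stress by activating SPAK and its close relative OSR1, which phosphorylate both transporter types: this activates NKCC1 and inhibits the KCCs. Loss of KCC2 in dorsal horn neurons of the spinal cord is a much studied change after nerve injury in rodents.

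Slc12a5 lies on chromosome 2 of GRCm38, from 164960802 to 164999731 on the plus strand, with 10 annotated transcripts. Its RNA starts at a pair of sites. The upstream first exon gives the KCC2a form and the downstream one gives KCC2b, the main form of the mature brain. Both start windows are shown because the deposited count adds the reads of both forms, so the values below do not say which form they come from. The windows run from 250 bases before to 50 bases after each RefSeq start (GRCm38.p6), at chr2:164960596-164960895 and chr2:164967738-164968037 on the plus strand. Capitals mark the motif CACGTG, an E-box that USF factors can bind.
KCC2a start: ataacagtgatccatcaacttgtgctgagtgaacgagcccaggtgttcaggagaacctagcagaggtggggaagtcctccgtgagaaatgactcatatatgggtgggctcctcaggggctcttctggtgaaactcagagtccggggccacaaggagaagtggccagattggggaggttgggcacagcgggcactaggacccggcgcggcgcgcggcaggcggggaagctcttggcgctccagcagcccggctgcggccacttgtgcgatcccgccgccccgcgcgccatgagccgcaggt
KCC2b start: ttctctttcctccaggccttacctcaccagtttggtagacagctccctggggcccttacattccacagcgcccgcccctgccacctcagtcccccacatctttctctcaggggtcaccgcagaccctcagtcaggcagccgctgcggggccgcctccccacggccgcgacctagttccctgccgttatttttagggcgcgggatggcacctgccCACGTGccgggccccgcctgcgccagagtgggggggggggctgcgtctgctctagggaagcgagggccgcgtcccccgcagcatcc
The motif CACGTG, which reads the same on both strands, was found 1 time, at position 215 of the 300 bases of the downstream window, and 0 times in the upstream one. It is present in 7.15% of 32851 mouse promoter windows of that length. Neither window held GCGTGGGCG or GCGGGGGCG, motifs of the Egr factors, on either strand, or TATAAA, which 0.612%, 2.91% and 13.6% of all windows hold. None of these motifs overlapped another in the windows. GC content was 63.7% in the upstream and 68.3% in the downstream window, against a median of 52.7% over all windows.

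Slc12a5 was the most abundant of the 9 per length of exon. It had 70.3 ± 9.67 CPM per kb of annotated exon in SNI libraries and 90.3 ± 2.99 CPM per kb in Sham libraries (SD, n = 4 each), where CPM are counts scaled to library size by TMM. Stk39 followed with 16.0 ± 1.55 CPM per kb in SNI and 17.3 ± 0.275 CPM per kb in Sham. Next came Wnk2, with 14.5 ± 2.16 CPM per kb in SNI and 16.6 ± 0.921 CPM per kb in Sham. Slc12a2 and Wnk1 lay close together, at 7.87 ± 1.21 and 7.73 ± 0.703 CPM per kb in SNI, and at 6.62 ± 0.921 and 6.56 ± 0.641 CPM per kb in Sham. Below them stood Slc12a9 (5.00 ± 0.867 CPM per kb in SNI and 5.03 ± 0.227 in Sham), Slc12a4 (3.51 ± 0.423 and 3.68 ± 0.376), Wnk3 (2.74 ± 0.111 and 2.74 ± 0.319) and Slc12a7 (0.395 ± 0.0954 and 0.261 ± 0.0741). Stk39 and Wnk2 overlapped within their spread, as did Slc12a2 and Wnk1, whose order turned round when the longest transcript replaced the union of exons as the length. The order was the same in both groups.

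Slc12a5 was the 1 member that passed the test, and it was lower in SNI. Its level was 609, 446, 486 and 552 CPM in SNI replicates 1 to 4, against 643, 668, 683 and 695 CPM in Sham replicates 1 to 4. The groups did not overlap, and SNI replicate 1 lay nearest to Sham. The mean was 523 ± 72.0 CPM in SNI and 672 ± 22.3 CPM in Sham (SD, n = 4 each). The log2 fold change was -0.36 ± 0.0937 (SE), or 0.778-fold with a 95% interval of 0.678 to 0.894 (edgeR quasi-likelihood test, Benjamini-Hochberg adjusted p = 0.0365 over all genes). An exact two-sided permutation test of its log2 CPM gave p = 0.0286, the smallest that 4 against 4 libraries allow. This 1 called member of 9 stands beside 5.02% of all 13911 tested genes called, or 2.87% called lower, and 1 of 9 with groups that did not overlap stands beside 12.7% of all genes, or 7.02% with SNI lower.

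**Figure D1:**
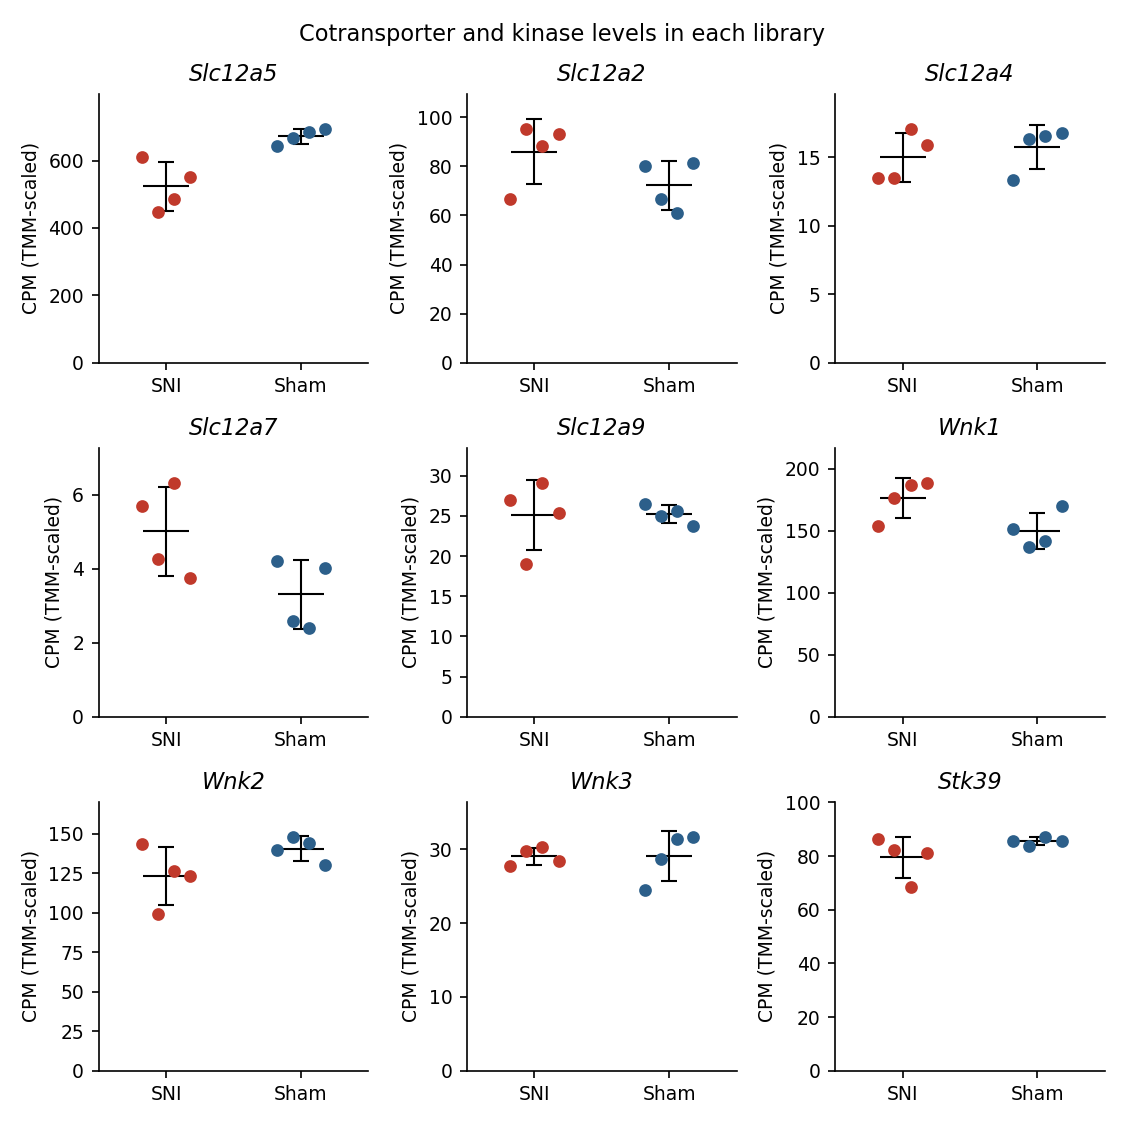
Each panel plots the TMM-scaled CPM of 1 gene, with a point per library (SNI in red, Sham in blue), a horizontal bar for the mean and whiskers for the SD over 4 libraries. The SNI points of Slc12a5 lie between 446 and 609 CPM, all under the Sham points, which start at 643 CPM, and in the other 8 panels the groups overlap.

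The Slc12a5 call stood close to its threshold. It held without SNI replicate 1 (log2 fold change -0.44, edgeR adjusted p = 0.0116). It ended without each of the other 7 libraries in turn: adjusted p was 0.0623, 0.110 and 0.0504 without SNI replicates 2, 3 and 4, and 0.0661, 0.0702, 0.101 and 0.0722 without Sham replicates 1, 2, 3 and 4. The estimate stayed negative throughout, from -0.44 to -0.29 over these 8 fits. Without both SNI replicates 2 and 3 it was -0.21, a smaller difference (adjusted p = 0.159). Over all 19 alternatives the adjusted p ran from 0.00487 with DESeq2 to 0.457 with a striatal marker value as a covariate, and 7 of the 19 kept the call.

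**Figure D2:**
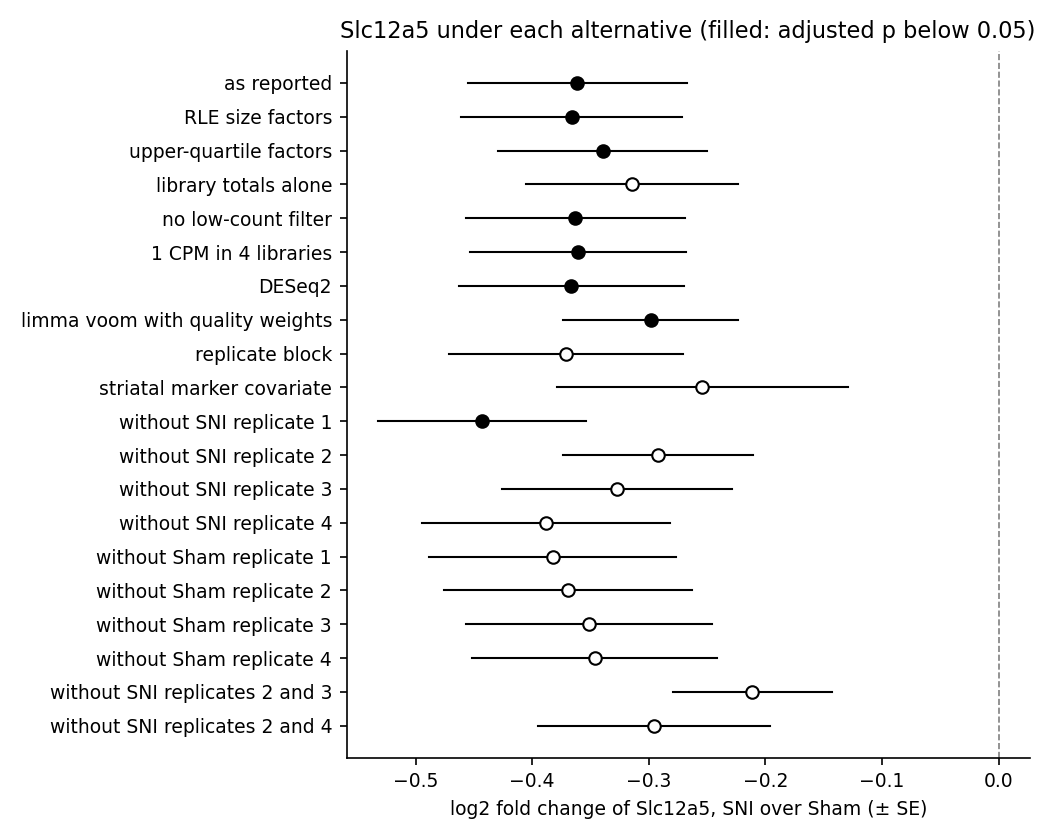
Points give the log2 fold change of Slc12a5, SNI over Sham, as reported and under each of 19 alternatives, with lines for 1 SE either side and filled points where the adjusted p was below 0.05. All points lie left of 0, between -0.44 and -0.21, and 7 of the 19 alternatives are filled.

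Most pan-neuronal and excitatory neuron markers also had lower estimates in SNI, 7 of 8 in each list. The exceptions were Map2 (log2 fold change 0.07) and Neurod2 (0.01). An unadjusted p under 0.05 was reached by 4 of the 8 pan-neuronal and 3 of the 8 excitatory markers, beside 21.1% of all tested genes. Of 8 pan-neuronal markers 1 fell, Rbfox3, which encodes the nuclear protein NeuN, and 0 rose. Their median log2 fold change was -0.16, against 0.01 over all tested genes, and their summed level was 7051 to 7955 CPM in SNI and 8137 to 8516 CPM in Sham. Of 8 excitatory neuron markers 1 fell, Nrgn, the postsynaptic calmodulin-binding protein neurogranin, and 0 rose, with a median of -0.20 and a summed level of 4691 to 6535 CPM in SNI and 6690 to 7426 CPM in Sham. Rbfox3 had a log2 fold change of -0.32 and Nrgn had -0.59 (edgeR adjusted p = 0.0366 and 0.00427). The 95% interval was -0.49 to -0.14 for Rbfox3 and -0.56 to -0.16 for Slc12a5. These overlap, and the gap between the Rbfox3 and Slc12a5 estimates was not tested. The call of Rbfox3 ended without each library except SNI replicate 1, with adjusted p of 0.0568 to 0.120. In bulk tissue, fewer neurons and less RNA per neuron cannot be told apart. As a share of the summed pan-neuronal markers, Slc12a5 came to 7.66%, 5.61%, 6.90% and 7.25% in SNI replicates 1 to 4 and 7.63%, 8.21%, 8.02% and 8.43% in Sham replicates 1 to 4. On that scale SNI replicate 1 overlapped Sham, and the other 3 SNI libraries lay below all Sham libraries. What part the neuronal markers have in the Slc12a5 difference was not tested.

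Slc12a2, the chloride importer NKCC1, did not pass. Its level was 66.7, 95.4, 88.5 and 93.3 CPM in SNI replicates 1 to 4, against 80.2, 66.5, 61.2 and 81.4 CPM in Sham replicates 1 to 4. SNI replicates 2 to 4 lay above every Sham library, and SNI replicate 1 lay within the Sham range. The log2 fold change was 0.25 with a 95% interval of -0.01 to 0.50 (edgeR adjusted p = 0.248). The 3 libraries lowest in Slc12a2, SNI replicate 1 and Sham replicates 2 and 3, were also the 3 lowest in oligodendrocyte markers. The summed level of those 8 markers was 4238, 5329, 5932 and 7490 CPM in SNI replicates 1 to 4 and 6704, 3034, 3684 and 6302 CPM in Sham replicates 1 to 4, and 0 of the 8 passed by edgeR, by DESeq2 or at an unadjusted p under 0.05. The part of oligodendrocyte content in the values of Slc12a2 was not tested. With a striatal marker value as a covariate its estimate turned to -0.06.

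The balance of importer and extruder RNA was read as the ratio of Slc12a2 to Slc12a5 counts within a library, which no scaling between libraries can change. The ratio was 0.109, 0.214, 0.182 and 0.169 in SNI replicates 1 to 4, against 0.125, 0.0996, 0.0895 and 0.117 in Sham replicates 1 to 4. In 3 SNI libraries it exceeded every Sham library, while SNI replicate 1 lay inside the Sham range. The mean was 0.169 ± 0.0437 in SNI and 0.108 ± 0.0161 in Sham (SD, n = 4 each), 1.56 times as high, and 1.42 to 1.75 times with 1 library left out. With a pair of SNI libraries left out it was as low as 1.29 times. The ratio is of counts, not of molecules, since the transcripts differ in length. In bulk tissue the ratio can also move with the mix of cell types, since Slc12a2 is made in glia and vessel cells too. The part of cell mix in the ratio was not tested. As a score over members the ratio carries no p-value.

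The ratio of Wnk1 to Wnk2, chosen after the values were seen, separated the libraries in the same way. It was 1.07, 1.78, 1.47 and 1.53 in SNI replicates 1 to 4, against 1.08, 0.922, 0.980 and 1.31 in Sham replicates 1 to 4. SNI replicates 2 to 4 again lay above the Sham libraries and SNI replicate 1 among them.

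**Figure D3:**
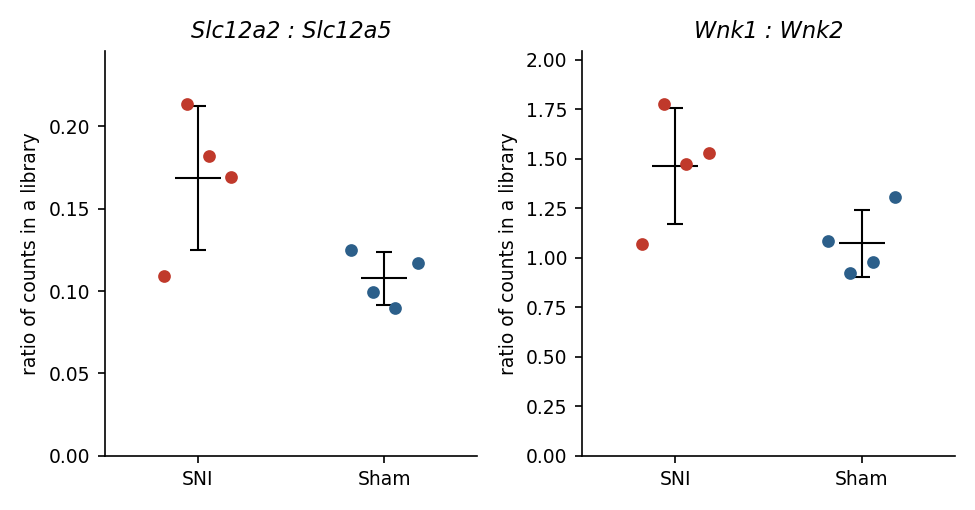
The panels plot the within-library ratio of Slc12a2 to Slc12a5 counts (left) and of Wnk1 to Wnk2 counts (right), a point per library, with mean and SD over 4 libraries. In both panels 3 SNI libraries lie above all 4 Sham libraries, up to 0.214 and 1.78, and 1 SNI library, at 0.109 and 1.07, lies among them.

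The other cotransporters did not pass. Slc12a7, which encodes KCC4, a potassium chloride exporter, had the largest estimate of the 9. It had 5.70, 4.26, 6.32 and 3.74 CPM in SNI replicates 1 to 4 and 4.21, 2.59, 2.40 and 4.01 CPM in Sham replicates 1 to 4. Its log2 fold change was 0.59, with a wide 95% interval of 0.08 to 1.11 (edgeR adjusted p = 0.172), and the groups overlapped. Slc12a4, which encodes KCC1, the widely made exporter tied to cell volume, had 15.0 ± 1.81 CPM in SNI and 15.8 ± 1.61 CPM in Sham (SD, n = 4 each). Slc12a9, a family member whose transport role is less settled, had 25.1 ± 4.35 CPM in SNI and 25.2 ± 1.14 CPM in Sham (SD, n = 4 each). SNI libraries ranged more widely than Sham ones for Slc12a9, from 19.0 to 29.2 CPM against 23.8 to 26.5 CPM. The 95% interval of the log2 fold change was -0.33 to 0.18 for Slc12a4 and -0.26 to 0.24 for Slc12a9, so differences inside those intervals remain possible.

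None of the 4 kinases passed by edgeR or DESeq2, and Wnk1 alone had an unadjusted p under 0.05. Wnk1, the most broadly made WNK, had 154, 177, 187 and 189 CPM in SNI replicates 1 to 4 and 151, 137, 142 and 170 CPM in Sham replicates 1 to 4. SNI replicates 2 to 4 exceeded every Sham library, with a log2 fold change of 0.24 and a 95% interval of 0.04 to 0.43 (edgeR adjusted p = 0.146, exact two-sided permutation p = 0.0571). Wnk2, a WNK abundant in brain, had 144, 99.3, 127 and 123 CPM in SNI replicates 1 to 4 and 139, 148, 144 and 130 CPM in Sham replicates 1 to 4. Its log2 fold change was -0.19 (95% interval -0.40 to 0.02, edgeR adjusted p = 0.287), and SNI replicate 1 lay among the Sham values while the other 3 lay below them.

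Wnk3, an X-linked WNK made in neurons, had 29.0 ± 1.18 CPM in SNI and 29.1 ± 3.37 CPM in Sham, with a 95% interval of the log2 fold change of -0.21 to 0.21. Stk39, the kinase that passes the WNK signal to the transporters, had 79.5 ± 7.68 CPM in SNI and 85.6 ± 1.36 CPM in Sham (SD, n = 4 each), with an interval of -0.28 to 0.06. SNI replicate 3 was the low library for Stk39, at 68.5 CPM, while the other 3 SNI libraries lay between 81.1 and 86.2 CPM. Intervals are those of single genes. By unadjusted p, 3 of the 9 members were under 0.05 (Slc12a5, Slc12a7 and Wnk1), beside 21.1% of all tested genes.

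**Figure D4:**
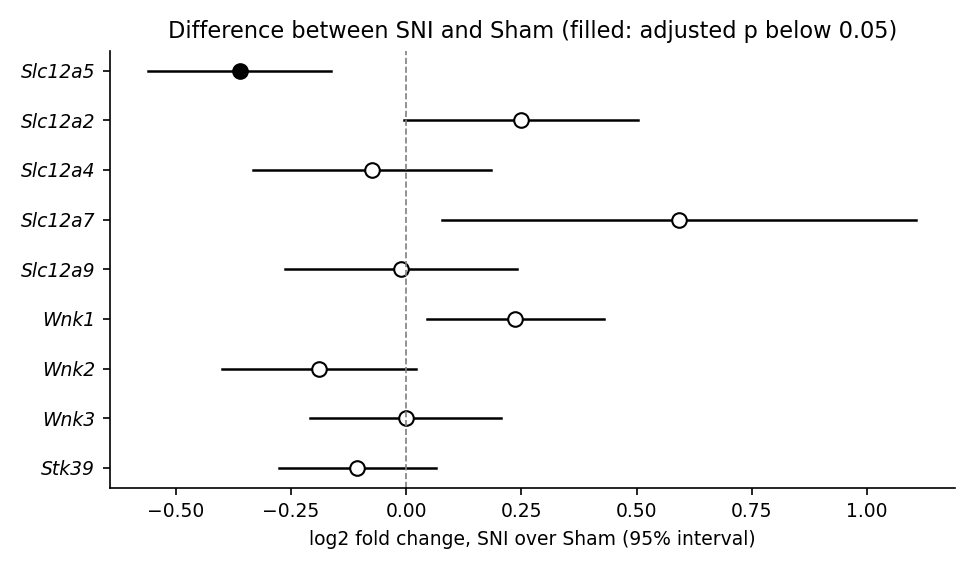
Points give the edgeR log2 fold change of each member, SNI over Sham, with lines for the 95% interval and a filled point where the adjusted p was below 0.05. The interval of Slc12a5 runs from -0.56 to -0.16, and those of Slc12a7 and Wnk1 lie above 0, though their adjusted p did not pass.

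Other genes of the family and of the WNK pathway were read from the same fit. Slc12a8 was scarce, with 1.17 ± 0.288 CPM in SNI and 1.21 ± 0.488 CPM in Sham (SD, n = 4 each). Its log2 fold change of -0.05 did not pass (adjusted p = 0.958 by edgeR). Slc12a1 and Slc12a3, known as kidney transporters, have 0 rows in the table. Of 14 WNK pathway regulators 0 passed by edgeR in either direction, 2 had an unadjusted p under 0.05 and 1, Sgk1, passed by DESeq2, with a median log2 fold change of 0.01. Sgk1, a kinase induced by glucocorticoids that acts on WNK and on ion channels, had the largest estimate of them. It had 74.4, 65.1, 143 and 91.5 CPM in SNI replicates 1 to 4 and 54.5, 46.5, 53.5 and 48.7 CPM in Sham replicates 1 to 4. The groups did not overlap and SNI replicate 3 was the highest (log2 fold change 0.88, edgeR adjusted p = 0.0854). Without that library the estimate was 0.60 and passed (adjusted p = 0.0185). Oxsr1, which encodes OSR1, had 0.25 (adjusted p = 0.165), and Cab39, which encodes the SPAK and OSR1 activator MO25, had -0.14 (adjusted p = 0.329).

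Of 16 genes known as partners or regulators of KCC2, 4 fell and 0 rose, with a median log2 fold change of -0.13. Over all tested genes 5.02% were called, and 2.87% were called lower in SNI. The list was chosen with earlier results of these data known, so its count is not a test of the set. Bdnf, the neurotrophin that regulates KCC2 through its receptor TrkB, had 23.2, 31.4, 21.7 and 34.0 CPM in SNI replicates 1 to 4 and 38.3, 43.4, 49.7 and 43.8 CPM in Sham replicates 1 to 4. All SNI values lay below the Sham values (log2 fold change -0.67, edgeR adjusted p = 0.0139), and the call held without any single library. It ended without both SNI replicates 2 and 3 (adjusted p = 0.0808) and with the striatal marker covariate (log2 fold change -0.85, adjusted p = 0.0787). Prkca, a protein kinase C, had 141 ± 11.7 CPM in SNI and 191 ± 19.5 CPM in Sham (SD, n = 4 each, log2 fold change -0.44). Pacsin1, a KCC2-binding membrane-shaping protein, had 335 ± 55.0 CPM in SNI and 437 ± 18.4 CPM in Sham (log2 fold change -0.39). Arhgef7, the exchange factor beta-PIX that KCC2 binds in dendritic spines, had 114 ± 11.0 CPM in SNI and 142 ± 9.74 CPM in Sham (log2 fold change -0.32). The edgeR adjusted p was 0.0133 for Prkca, 0.0425 for Pacsin1 and 0.0448 for Arhgef7. The Prkca call ended without Sham replicate 3 (0.0544). That of Pacsin1 ended without SNI replicates 2 or 3 or any Sham library (0.0623 to 0.123), and that of Arhgef7 without SNI replicates 2 or 3 or Sham replicates 1, 2 or 3 (0.0773 to 0.132).

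Of 19 other chloride and bicarbonate transport genes 0 passed by edgeR or DESeq2. An unadjusted p under 0.05 was reached by 7 of them, beside 21.1% of all tested genes. The 3 of smallest p among the 19 were Lrrc8b, a volume-regulated anion channel subunit, Car7, a neuronal carbonic anhydrase, and Clcn7, a lysosomal chloride transporter. They had log2 fold changes of -0.24, -0.29 and -0.23 (edgeR adjusted p = 0.149, 0.154 and 0.168). In the list 15 estimates were negative and 4 positive. Clcn6 (0.20) and Car2 (0.28), also under 0.05 unadjusted, were among the positive ones. The sodium-potassium pump maintains the gradients the cotransporters run on. Fxyd1, phospholemman, a regulator of the pump, rose to 35.1 ± 6.33 CPM in SNI, against 21.6 ± 3.83 CPM in Sham (SD, n = 4 each, log2 fold change 0.70, edgeR adjusted p = 0.0159). The Fxyd1 call ended without SNI replicate 2 or 3 (0.0535 and 0.0537). Atp1b1, a beta subunit, had -0.21 (adjusted p = 0.259).

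GABA-A receptors are the channels that chloride passes through, and of their 12 subunits searched 1 rose and 0 fell. The alpha subunit Gabra2 had 103 ± 24.7 CPM in SNI and 57.9 ± 5.62 CPM in Sham (SD, n = 4 each, log2 fold change 0.83, edgeR adjusted p = 0.00788). This call held without any single library and ended with the striatal marker covariate (log2 fold change 0.68, adjusted p = 0.187). Gabrg1 had 0.40 and did not pass by edgeR (adjusted p = 0.0536), while DESeq2 called it (0.0313).

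**Figure D5:**
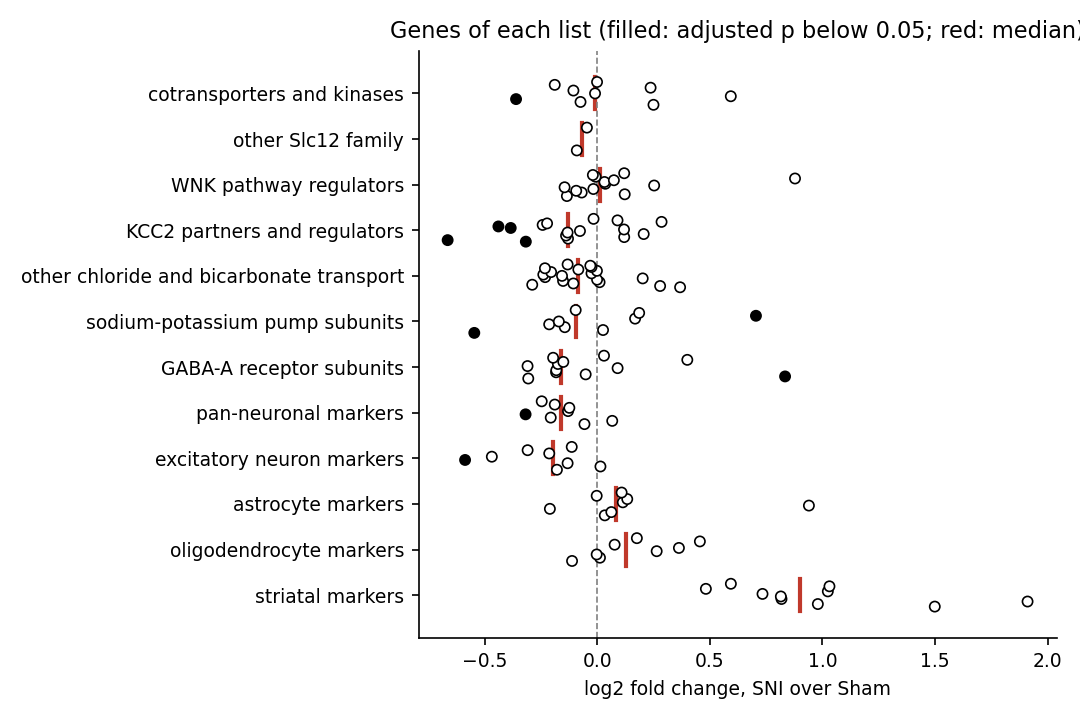
Each point is the log2 fold change of 1 gene, SNI over Sham, in rows by gene list, filled where the adjusted p was below 0.05, with a red bar at the list's median. The medians run from -0.20 for excitatory neuron markers to 0.90 for striatal markers, and the 4 filled points among KCC2 partners lie left of 0.

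The genes whose profile over the 8 libraries was most like that of Slc12a5 were Calm3, Dlg4, Pacsin1, Vps52 and Rbfox3. Likeness was the root mean square difference of log2 CPM after centring each gene on its own mean, and these 5 differed from Slc12a5 by 0.0404, 0.0418, 0.0433, 0.0506 and 0.0539, against a median of 0.282 over all other tested genes. The difference between SNI and Sham is part of this measure. The nearest genes therefore have fold changes near that of their target by selection, and their calls are no separate result. Dlg4, which encodes the postsynaptic scaffold PSD-95, had a log2 fold change of -0.37 (edgeR adjusted p = 0.0257). The Dlg4 call ended without SNI replicate 3 or Sham replicates 1, 2 or 3 (0.0534 to 0.0766). Calm3, a calmodulin gene, and Vps52, a vesicle tethering subunit, had -0.32 and -0.31 and did not pass by edgeR (0.0660 and 0.0579), while DESeq2 called both (0.0131 and 0.0258). For Slc12a2 the nearest were Car2, a carbonic anhydrase that oligodendrocytes make, Hmgn2, Rnf13, Tspan15 and Krcc1, at 0.0377, 0.0553, 0.0599, 0.0602 and 0.0696, against a median of 0.289. None of these 5 passed by edgeR or DESeq2, and 2 had an unadjusted p under 0.05.

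Markers of other cell types were compared in the same fit. Of 8 astrocyte markers 0 passed by edgeR or DESeq2 and 1 had an unadjusted p under 0.05, with a summed level of 3768 to 4884 CPM in SNI and 3871 to 4708 CPM in Sham. Of 8 GABAergic neuron markers and 6 endothelial markers 0 passed by edgeR or DESeq2, and 0 and 1 had an unadjusted p under 0.05. Of 6 oligodendrocyte precursor markers Gpr17, a receptor of cells maturing into oligodendrocytes, fell (log2 fold change -0.62). Of these 6, 3 had positive and 3 had negative estimates. Of 8 microglia markers Tmem119 and P2ry12 rose (0.48 and 0.59). Of these 8, 7 had positive estimates and 1 had a negative one. An unadjusted p under 0.05 was reached by 5 of the 8, beside 21.1% of all tested genes. DESeq2 called 4 of them and limma voom called 1. Of 3 choroid plexus markers in the table, Ttr and Clic6 rose (2.46 and 2.31). Aqp1 had an estimate in the other direction, -0.91, and did not pass (edgeR adjusted p = 0.540). These 3 choroid markers together reached 2.35 to 4.52 CPM in SNI libraries and 0.632 to 3.32 CPM in Sham libraries. The highest edgeR adjusted p with 1 library left out was 0.0666 for Gpr17 (SNI replicate 3), 0.0742 for Tmem119 (SNI replicate 3), 0.0964 for P2ry12 (SNI replicate 3), 0.0848 for Ttr (Sham replicate 3) and 0.0617 for Clic6 (SNI replicate 2), which ended each call. These 5 genes, like Rbfox3 and Nrgn, were named after their values were seen. Their part in the members' values was not tested.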

How the data were processed

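The authors deposited 1 table of raw read counts, all whole numbers, keyed by gene symbol, for 8 libraries. Per the submitters' processing notes, the authors used fastp, HISAT2 and StringTie on GRCm38. The sources used here do not give versions, annotation, the way counts were made, the strand setting or a filter. No count is below 1. No gene that overlaps a member in GENCODE M21 has a row in the table, though reads from either strand could be counted to a member where strand was not used. Lengths and coordinates came from GENCODE M21 (14661 of 14765 symbols matched), promoter windows from RefSeq (GRCm38.p6).

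Genes were kept by filterByExpr (13911), scaled by TMM and tested with edgeR 4.0.16 in R 4.3.3 (robust quasi-likelihood F-test, group as the only term, two-sided), with Benjamini-Hochberg adjustment over all tested genes and a threshold of 0.05. The SE is the size of the log2 fold change over the square root of F, and 95% intervals use the moderated degrees of freedom. CPM are TMM-scaled, and log2 CPM have a prior count of 2. The test was checked on simulated counts. Same-group libraries differed by more than sampling noise (chi-square per degree of freedom 7.39 to 28.4), so none was a copy.

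The members and lists were chosen with earlier results of these data known. All 9 members are named, with the genes at the threshold in each pathway list (or up to 3 of smallest p) and the 5 nearest profiles to Slc12a5 and Slc12a2. Alternatives were other scalings, other low-count filters, DESeq2 1.42.0, limma 3.58.1 voom, a replicate block, a covariate of striatal markers, and libraries left out singly or in 2 pairs. Some genes that this rule takes are left out of the text.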

Additional observations from a re-analysis of the deposited data

Results flagged for a closer look

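In 4 of the 86 groups of 4 libraries examined for named genes and for the Slc12a2 to Slc12a5 ratio, 1 library stood far from the other 3. Chance flags about 1 group in 20. Slc12a4 had 13.4 CPM in Sham replicate 1 and 16.3 to 16.8 CPM in the other Sham libraries. Atp1b1 had 1131 CPM in SNI replicate 3 and 1535 to 1553 CPM in the other SNI libraries. Car2 had 160.4 CPM in SNI replicate 1 and 219.5 to 229 CPM in the other SNI libraries. Hmgn2 had 50.4 CPM in SNI replicate 1 and 64.6 to 66.1 CPM in the other SNI libraries. Without SNI replicate 1, Car2 passed the test (log2 fold change 0.39, edgeR adjusted p = 0.0350). In no alternative did a member other than Slc12a5 pass.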

How the results depend on the processing

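Slc12a5, called in the reported fit, made the count of called members 1. That count stayed 1 with RLE or upper-quartile factors, with both other low-count filters, with DESeq2, with limma voom, at a threshold of 0.1 and without SNI replicate 1. It was 0 with library totals alone (adjusted p = 0.0541), with the replicate block (0.0542), with the striatal covariate (0.457), without SNI replicates 2 and 3 (0.159) or 2 and 4 (0.134), and ran from 0 to 1 with single libraries left out. The cause was not tested. Of all tested genes 698 were called (299 higher, 399 lower), and 446 higher and 276 lower with library totals alone. The count was 1165 with DESeq2, 49 with the striatal covariate, 178 without SNI replicates 2 and 3, 438 once replicates 2 and 4 of SNI were left out, and 258 to 858 with single libraries left out. The lowest counts were 258 without Sham replicate 3, 297 without SNI replicate 3, 430 without Sham replicate 2 and 447 without Sham replicate 1. Under the replicate block the count was 518, of which 469 were among the 698. Same-numbered libraries did not deviate together (correlations of -0.148 to -0.0056), and 0 of 8 libraries correlated best with their own number. The labels do not say whether the numbers pair the libraries, and correlations over all genes cannot settle it.

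Values near 0 changed sign. The estimate for Slc12a9, -0.01 as reported, was 0.012 with upper-quartile factors, 0.037 with library totals, 0.012 with limma voom, 0.13 with the striatal covariate, 0.051 without SNI replicates 2 and 3, 0.15 once replicates 2 and 4 of SNI were left out, and -0.089 to 0.10 with single libraries left out. That for Wnk3 (-0.0015) was 0.022 with upper-quartile factors, 0.047 with library totals, 0.00023 with a filter of 1 CPM, 0.0049 with the replicate block, 0.058 with the striatal covariate, and -0.076 to 0.043 with single libraries left out. That for Slc12a8 (-0.05) was 0.0020 with library totals, 0.37 with the striatal covariate, 0.014 without SNI replicates 2 and 3, 0.074 once replicates 2 and 4 of SNI were left out, and -0.26 to 0.13 with single libraries left out. The striatal covariate also turned Slc12a2 (-0.058), Slc12a4 (0.0076), Car2 (-0.0086), Rnf13 (-0.12), Tspan15 (-0.054) and Krcc1 (-0.019). It ended the calls of Ttr, Gpr17, Nrgn, Tmem119, Fxyd1, Prkca, P2ry12, Dlg4, Arhgef7, Clic6, Rbfox3 and Pacsin1 too, with adjusted p of 0.0941 (Ttr) to 0.529 (Pacsin1). Estimates moved to unlike degrees. That of Fxyd1 was 0.70 ± 0.146 (SE) as reported and 0.72 ± 0.204 with the covariate. That of Pacsin1 was -0.39 ± 0.103 and -0.23 ± 0.131. All 10 striatal markers had higher estimates in SNI, so the covariate partly tracks the group. The part of striatal content in these calls was not tested. Slc12a7, Wnk1, Wnk2 and Stk39 kept their sign in all 19 alternatives and never passed. Sgk1, not called as reported, passed with DESeq2 (0.0145), limma voom (0.0177) and the replicate block (0.0282). With 38 to 95 counts per library, depth limits Slc12a7 most.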
